A study of Mus musculus with 2 samples.

Results

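The proteasome is described here by 36 genes, those whose symbols begin with Psma, Psmb, Psmc or Psmd followed by a number, without the inducible subunits Psmb8, Psmb9 and Psmb10, out of 55450 genes in the deposited matrices. They comprise 16 genes of the 20S core, of which Psma8 and Psmb11 are restricted to other tissues, 17 subunits of the 19S regulator and 3 chaperones of regulator assembly, Psmd5, Psmd9 and Psmd10, which carry subunit symbols but leave the finished particle. The tissue was aorta of Apoe-/- mice aged 12 weeks in which Ang II (angiotensin II) had induced an abdominal aortic aneurysm, which lack apolipoprotein E and have high plasma cholesterol. One group received DMSO, a solvent, and the other an inhibitor, each represented by 1 single-cell RNA-seq library (10x 3' v3) and both sharing genotype, age and Ang II treatment. Neither the inhibitor's name, target, dose and timing nor the number of animals per library is given in the sources used here, and the group names were read from initials in the titles. With 1 library per group there is no replicate check and no p-value, and every interval below is an exact 95% interval from the counts that covers counting error only.

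The proteasome degrades proteins tagged with ubiquitin. Its core is a barrel of stacked rings of alpha and beta subunits in which Psmb5, Psmb6 and Psmb7 carry the proteolytic sites, and its regulator recognises the tagged protein, removes the ubiquitin, unfolds the chain with a ring of ATPases and feeds it into the barrel. When proteasome activity is short, the transcription factor Nrf1 (Nfe2l1) is known to raise the subunit genes together through antioxidant response elements, and interferon replaces the catalytic subunits with Psmb8, Psmb9 and Psmb10 to form the immunoproteasome.

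Upstream sequences are shown for 5 members that stood among the highest ratios of inhibitor to DMSO in fibroblast-like, smooth muscle-like or Schwann-like cells, so that the promoters of members with like ratios can be compared letter by letter. They come from the RefSeq promoter table (GRCm38.p6), which matched 29 of the 36 members with 31 promoters, and bases inside the GENCODE gene were left out. Psmb5 (minus strand) is from chr14:54618023-54618245, Psmb6 (plus) from chr11:70525107-70525356, Psmd12 (plus) from chr11:107479278-107479483, Psmc5 (plus) from chr11:106255935-106256153 and Psmd4 (minus) from chr3:95042615-95042864. Capitals mark matches to TGACNNNGC, the core of the antioxidant response element, on either strand.
Psmb5: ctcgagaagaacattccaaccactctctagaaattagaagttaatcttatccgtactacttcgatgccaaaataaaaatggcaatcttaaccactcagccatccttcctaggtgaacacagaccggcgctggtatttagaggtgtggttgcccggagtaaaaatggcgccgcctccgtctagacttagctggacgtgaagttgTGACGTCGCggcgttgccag
Psmb6: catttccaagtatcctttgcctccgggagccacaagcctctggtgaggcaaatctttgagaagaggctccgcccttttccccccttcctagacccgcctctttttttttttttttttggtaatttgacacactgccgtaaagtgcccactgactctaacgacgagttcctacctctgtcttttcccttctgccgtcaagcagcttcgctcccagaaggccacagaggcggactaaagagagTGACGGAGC
Psmd12: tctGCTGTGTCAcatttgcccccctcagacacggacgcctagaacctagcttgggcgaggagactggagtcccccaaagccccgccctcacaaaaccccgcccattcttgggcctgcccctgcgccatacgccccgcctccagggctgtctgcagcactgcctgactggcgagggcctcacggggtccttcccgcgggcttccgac
Psmc5: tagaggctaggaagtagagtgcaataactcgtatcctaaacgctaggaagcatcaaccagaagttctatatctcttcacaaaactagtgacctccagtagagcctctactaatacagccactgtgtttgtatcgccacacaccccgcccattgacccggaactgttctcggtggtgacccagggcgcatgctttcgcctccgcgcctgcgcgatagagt
Psmd4: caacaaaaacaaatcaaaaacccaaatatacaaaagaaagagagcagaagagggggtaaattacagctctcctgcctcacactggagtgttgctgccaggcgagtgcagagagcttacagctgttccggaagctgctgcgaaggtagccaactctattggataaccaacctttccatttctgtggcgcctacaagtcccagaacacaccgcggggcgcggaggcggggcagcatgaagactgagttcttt
The element began 47 bases before the RefSeq start in Psmb5 and 9 bases before it in Psmb6, and lay on the opposite strand 247 bases before it in Psmd12, while the windows of Psmc5 and Psmd4 held no match. The 5 genes do not stand for all members with high ratios in these classes: Psmc6 held a match too, and Psmc2, Psmc4, Psmd11 and Psmd14 held none. In windows of 250 bases before the start, TGACNNNGC was found in 5 of 31 member promoters (16.1%; Psmb5, Psmb6, Psmc6, Psmd12 and Psmd9) and in 10.2% of 32851 promoters of all genes. CCAAT, the CCAAT box, was found in 12 member promoters (38.7%) and 33.8% of all. The heat shock element of 3 units, alternating GAA and TTC blocks with 2 bases between them, was found in 0 member promoters and 0.466% of all. A match is a description of the letters and not a bound site.

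After filtering, the DMSO library held 8411 cells with a median of 7935 UMIs (unique molecular identifiers, which count captured transcripts) and the inhibitor library 7417 cells with a median of 8991, and 16 barcodes occurred in both. Clusters were named from marker genes, so class names carry "-like". Libraries were compared within 6 classes, those holding 100 cells or more on both sides, with DMSO and inhibitor cell numbers of 776 and 3085 smooth muscle-like, 2004 and 1846 fibroblast-like, 1864 and 741 macrophage-like, 363 and 173 dendritic-like, 873 and 545 endothelial-like, and 452 and 224 Schwann-like cells. Every marker listed for a compared class had UMIs in that class in both libraries. This is no check of the names, which came from the same markers. All smooth muscle, fibroblast and macrophage markers also had UMIs in each of the other compared classes. Of the 8 dendritic markers, 5 met the naming condition in cluster 14 and 3 in cluster 28, which form the dendritic-like class. Levels are UMIs summed over a class and scaled to the total UMIs of that class and library (CPM). The 3' protocol counts transcripts without regard to length, so levels of different genes are set side by side here. Counting can still differ between genes for other reasons, such as near-identical copies or overlapping exons.

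The 36 genes together made up between 3683 and 4979 CPM in the 6 classes. In the DMSO library, the smooth muscle-like class, which contracts the vessel wall, stood at 4628 CPM (4590 to 4666) and dendritic-like cells, which present antigen, at 4622 CPM (4551 to 4694). Endothelial-like cells, which line vessels, followed at 4438 CPM (4387 to 4489) and macrophage-like cells at 4373 CPM (4338 to 4407). Fibroblast-like cells, the matrix producers, stood at 4124 CPM (4103 to 4145) and Schwann-like cells, the glia of peripheral nerve, at 3683 CPM (3609 to 3759). Within the smooth muscle-like and dendritic-like pair, and within the endothelial-like and macrophage-like pair, the intervals overlapped.

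In the inhibitor library the order was dendritic-like 4979 CPM (4869 to 5090), smooth muscle-like 4892 CPM (4870 to 4914), fibroblast-like 4677 CPM (4648 to 4706), endothelial-like 4637 CPM (4563 to 4713), Schwann-like 4388 CPM (4263 to 4516) and macrophage-like 4345 CPM (4287 to 4404). Here the intervals overlapped within the first, the second and the last pair of neighbours. Smooth muscle-like and dendritic-like cells therefore led in both libraries.

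**Figure D1:**
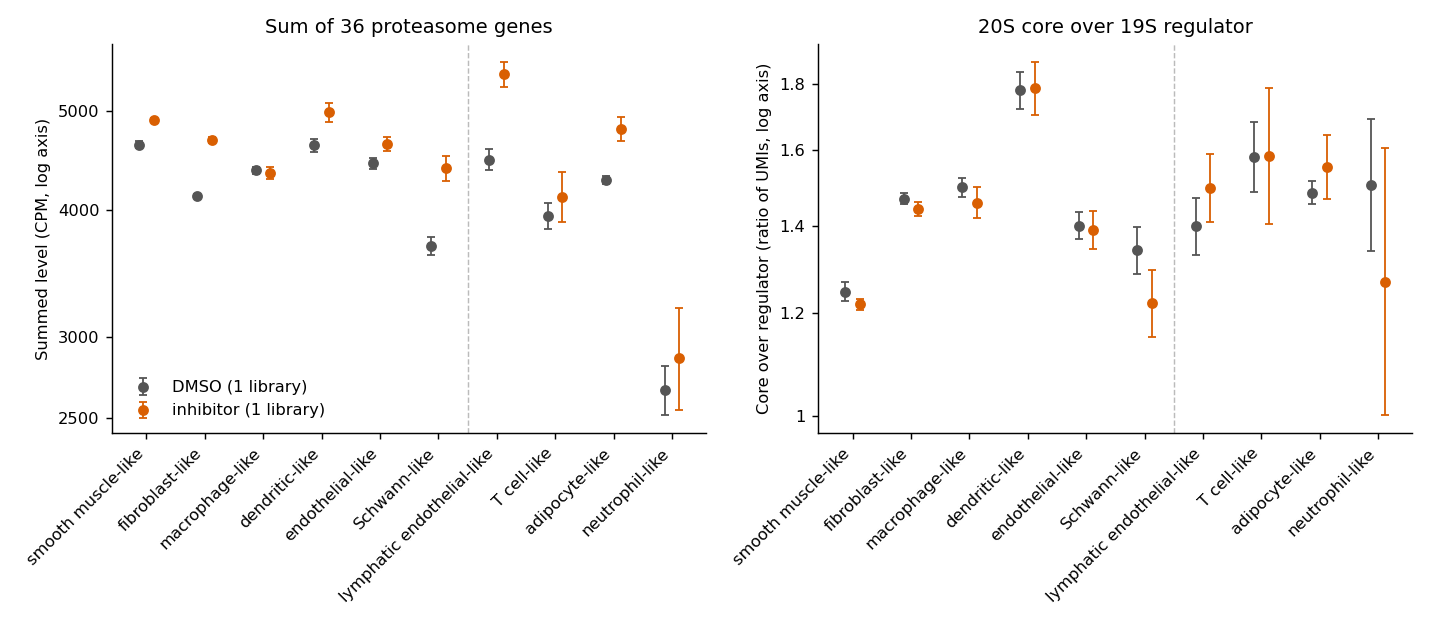
Left, summed level of the 36 genes (CPM, log axis) and right, ratio of summed core to summed regulator UMIs (log axis), for each class in the DMSO (grey) and the inhibitor library (orange), 1 library each; bars are exact 95% counting intervals, and classes right of the dashed line have under 100 cells in 1 library. Schwann-like cells go from 3683 to 4388 CPM while macrophage-like cells stay near 4373, and dendritic-like cells have the highest core to regulator ratio among the 6 compared classes in both libraries.

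The alpha ring, which forms the gate of the barrel, held the most abundant member. Psma7 stood at 324 CPM over all DMSO cells and 319 CPM over all inhibitor cells, followed by Psmb1 of the beta ring at 253 and 259 CPM and Psma3 at 217 and 261 CPM. At the other end, the thymus subunit Psmb11 and the testis subunit Psma8 stood at 0.146 and 0.854 CPM in DMSO cells and at 0.189 and 0.365 CPM in inhibitor cells, and both were below the level needed to count as measured (20 CPM in either library, with 20 UMIs in all). The other 34 genes were measured in all 6 classes, so the filter removed no member for being low in 1 group alone.

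Core and regulator did not keep a single ratio across cell types. Dendritic-like cells carried 1.78 core UMIs per regulator UMI in the DMSO library (1.72 to 1.84) and 1.78 in the inhibitor library (1.70 to 1.87). Smooth muscle-like cells carried 1.246 (1.23 to 1.27) and 1.22 (1.21 to 1.23). The intervals of these 2 classes did not overlap in either library. Fibroblast-like cells stood at 1.47 and 1.44, macrophage-like cells at 1.498 and 1.46, and endothelial-like cells at 1.4 and 1.39 in the DMSO and the inhibitor library. Among the 6 classes, Schwann-like cells showed the widest gap between the libraries, 1.34 (1.29 to 1.398) against 1.22 (1.15 to 1.29), with intervals that met. The ratio also varied inside a class. Macrophage-like clusters ran from 1.37 (1.33 to 1.41) in cluster 10 to 1.83 (1.69 to 1.98) in cluster 23, with 49 cells, in the DMSO library. Cluster 23 was thus level with dendritic-like cells there, and stood at 1.54 (1.39 to 1.70) in the inhibitor library.

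Single genes followed this split in part, most clearly in the alpha ring and among the ATPases. Of the 14 measured core subunits, 8 were highest in dendritic-like cells in both libraries, among them Psma1, Psma2, Psma3, Psma4 and Psma7. Of the 17 regulator subunits, 7 were highest in smooth muscle-like cells in both libraries and 5 were lowest in dendritic-like cells in both. The 7 included 5 of the 6 ATPases. The lid did not follow the split: of its 8 subunits, 2 were highest in dendritic-like and 1 in smooth muscle-like cells in both libraries. In the beta ring, 2 of 7 subunits were highest in dendritic-like cells in both libraries, against 6 of 7 in the alpha ring. Psmc1, an ATPase of the regulator, stood at 97.3 CPM in smooth muscle-like and 52.9 CPM in dendritic-like cells of the DMSO library, and at 87.0 and 40.4 CPM in the inhibitor library. Psmd1, the large scaffold of the regulator base, stood at 120 and 67.2 CPM in the same DMSO classes and at 123 and 63.4 CPM in the inhibitor library. Both regulator genes were thus higher in smooth muscle-like than in dendritic-like cells whichever library was read.

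The 4 members that differed most between classes in the DMSO library were Psmd8, Psmd7, Psma1 and Psmb1. In the inhibitor library Psmd10 (48.0 CPM in dendritic-like and 20.6 CPM in smooth muscle-like cells) and Psmc1 differed more than Psma1 and Psmb1. Psmd7, a lid subunit that pairs with the deubiquitinase Psmd14, stood at 227 CPM in smooth muscle-like and 101 CPM in dendritic-like cells of the DMSO library, and at 263 and 112 CPM in the inhibitor library. Psmd8, another lid subunit, was level in smooth muscle-like (235 CPM) and dendritic-like cells (235 CPM) of the DMSO library and stood at 243 and 258 CPM in the inhibitor library. It was lowest in Schwann-like cells, at 86.0 and 118 CPM. Psma1 and Psmb1 were highest in dendritic-like and lowest in Schwann-like cells in both libraries, Psma1 at 174 and 85.3 CPM and Psmb1 at 330 and 168 CPM in the DMSO library. Over the 34 measured members, the highest class exceeded the lowest by a median of 1.47-fold in the DMSO and 1.45-fold in the inhibitor library. The largest ratio between the libraries in any 1 class had a median of 1.28, and for 25 of the 34 genes the range over classes was larger than that ratio in both libraries. The range takes the most distant pair among 6 classes, which offers more pairs than the library ratio does. Counting error alone can make it the larger, so this count does not rank class against library. The same class was highest in both libraries for 21 genes and lowest in both for 19.

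**Figure D2:**
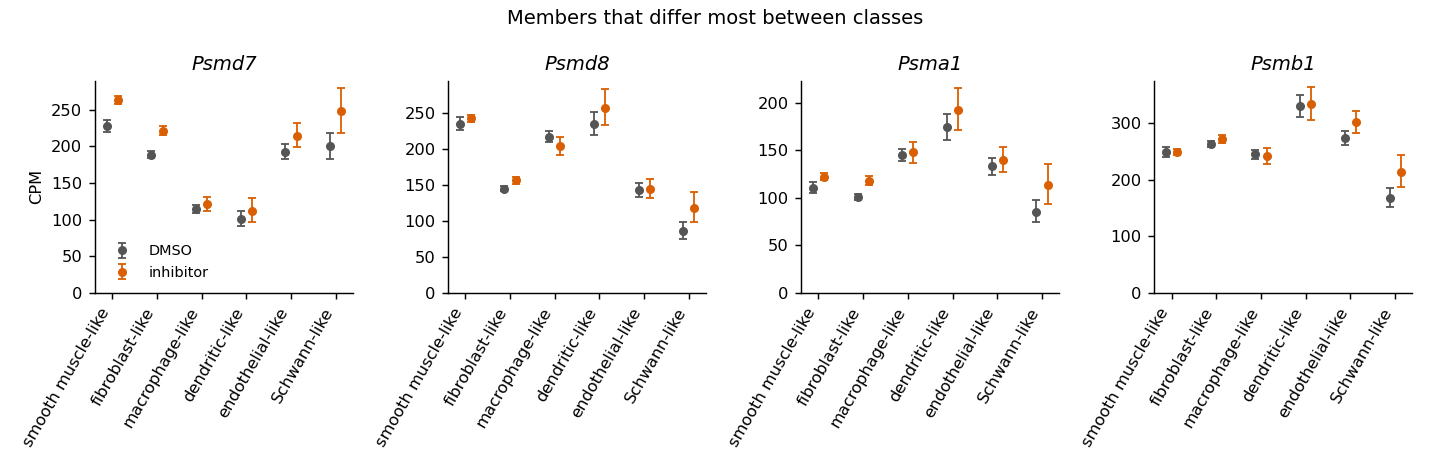
CPM of Psmd7, Psmd8, Psma1 and Psmb1 in the 6 compared classes of the DMSO (grey) and the inhibitor library (orange), with exact 95% counting intervals and axes from 0. Psmd7 is lowest in dendritic-like cells (101 and 112 CPM), where Psma1 and Psmb1 are highest in both libraries; in the DMSO library Psmd8 is level there with smooth muscle-like cells.

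The study set tissue given the inhibitor beside tissue given DMSO. The summed level was higher in the inhibitor library in 5 of the 6 classes, by small steps. Schwann-like cells differed most, with a ratio of inhibitor to DMSO of 1.19 (1.15 to 1.23), followed by fibroblast-like cells with 1.13 (1.125 to 1.14). Dendritic-like cells stood at 1.08 (1.05 to 1.11), smooth muscle-like cells at 1.06 (1.05 to 1.07) and endothelial-like cells at 1.045 (1.02 to 1.07). Macrophage-like cells stood at 0.994 (0.978 to 1.01), an interval that held 1.

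These ratios are shares of each class's UMIs. Counted instead as UMIs per cell with no scaling, the direction turned in 3 classes, with 76.1 member UMIs per fibroblast-like cell in the DMSO and 54.1 in the inhibitor library (ratio 0.710), 73.5 and 60.2 per smooth muscle-like cell (0.819) and 33.2 and 27.1 per endothelial-like cell (0.816). Total UMIs per cell moved with this, with medians of 15774 and 9358.5 in fibroblast-like, 14498 and 11291 in smooth muscle-like and 4353 and 3504 in endothelial-like cells. Per cell, Schwann-like (20.6 and 20.6) and dendritic-like cells (44.5 and 44.9) were nearly equal between the libraries, and macrophage-like cells had 32.8 and 28.8.

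The classes are made of clusters that the libraries filled unequally, so the sums were also read within clusters. Fibroblast-like cluster 2, led by Aldh1a2 and Prg4, held 52.4% of the class in the DMSO and 11.4% in the inhibitor library, and cluster 3, led by Angptl7 and Fmod, held 11.2% and 46.0%. Within fibroblast-like clusters 1, 2 and 3 the ratio of summed levels was 1.247, 1.19 and 1.12. Smooth muscle-like cluster 7, led by Eln, Acan and Ltbp2, held 49.2% and 10.5% of its class, and clusters 0, 7 and 8 gave 1.07, 1.05 and 1.09. The difference was therefore present within each of these clusters. Endothelial-like clusters 9, 12 and 16 gave 1.02 (0.983 to 1.07), 0.981 (0.938 to 1.03) and 1.00 (0.973 to 1.03), each with an interval that held 1, so the endothelial-like class difference was not seen inside its clusters. Macrophage-like clusters 4 and 5 gave 1.02 (0.982 to 1.06) and 1.05 (1.02 to 1.08), Schwann-like cluster 11 gave 1.19 and dendritic-like cluster 14 gave 1.10. The other macrophage-like clusters held under 100 inhibitor cells. Of these, cluster 10 stood at 4851 (4787 to 4915) and 5316 CPM (5176 to 5459). Clusters 22 and 23 were lower in the inhibitor library, with intervals that overlapped. Cluster 22 stood at 4920 (4789 to 5052) and 4774 CPM (4567 to 4988), and cluster 23 at 4797 (4622 to 4976) and 4531 CPM (4320 to 4750). Cluster 4, at 3279 and 3339 CPM, held 32.2% of the class in the DMSO and 50.1% in the inhibitor library. Its part in the class ratio of 0.994 was not tested.

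A member was called higher or lower where its ratio was at least 1.5-fold and its interval left out 1. Of 204 pairs of member and class, 3 were called, all higher in the inhibitor library, and 172 had ratios between 4/5 and 5/4. In smooth muscle-like cells 0 of 34 measured members were called, beside 11.7% of the 6248 genes measured there. The count was 0 in fibroblast-like cells beside 12.7% of 6455 genes (lower, 7.67%), 0 in macrophage-like cells beside 7.25% of 6481 genes, and 0 in endothelial-like cells beside 13.3% of 7147 genes (lower, 8.83%). It was 1 in dendritic-like cells beside 13.2% of 5983 genes (higher, 3.14%), and 2 in Schwann-like cells beside 11.3% of 7549 genes (higher, 5.44%). With the cells called doublets kept, the Schwann-like count was 1. Calls among the members were thus fewer than, or close to, the share among all genes, and the members moved by small amounts.

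Below that limit the members leaned to 1 side. Log2 ratios were taken after adding 5 CPM to both levels. Their median was 0.21 in fibroblast-like cells beside 0.00 over all measured genes, and 29 of 34 members had a ratio above 1. It was 0.22 in Schwann-like cells beside 0.02, with 30 of 34 above 1, and 0.13 in dendritic-like cells beside -0.07, with 25 of 34. Smooth muscle-like cells had a median of 0.08 beside -0.05 (24 of 34) and endothelial-like cells 0.08 beside -0.04 (25 of 34). The endothelial-like lean was not seen in all clusters, with 13 of 34 above 1 and a median of -0.092 in cluster 12 and 17 of 34 in cluster 16. In cluster 12, Psmb7 stood at 103 and 60.4 CPM (0.586, 0.396 to 0.845) and the lid subunit Psmd6 at 87.3 and 56.99 CPM (0.653, 0.434 to 0.955). Macrophage-like cells had 0.01 beside 0.01, with 18 of 34 above 1. With the limit lowered to 5/4-fold, 9 members were higher and 1 lower in fibroblast-like cells (15.9% and 17.0% of all measured genes), 9 were higher in Schwann-like cells (10.5%), 5 were higher in dendritic-like cells (7.45%) and 1 was lower in smooth muscle-like cells (19.6%). With the limit raised to 2-fold, 0 members were higher in dendritic-like (0.769%) or Schwann-like cells (1.11%). The genes with a ratio above 1 in all 6 classes numbered 14, and Psmd3, a lid subunit, was the 1 gene below 1 in all 6.

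**Figure D3:**
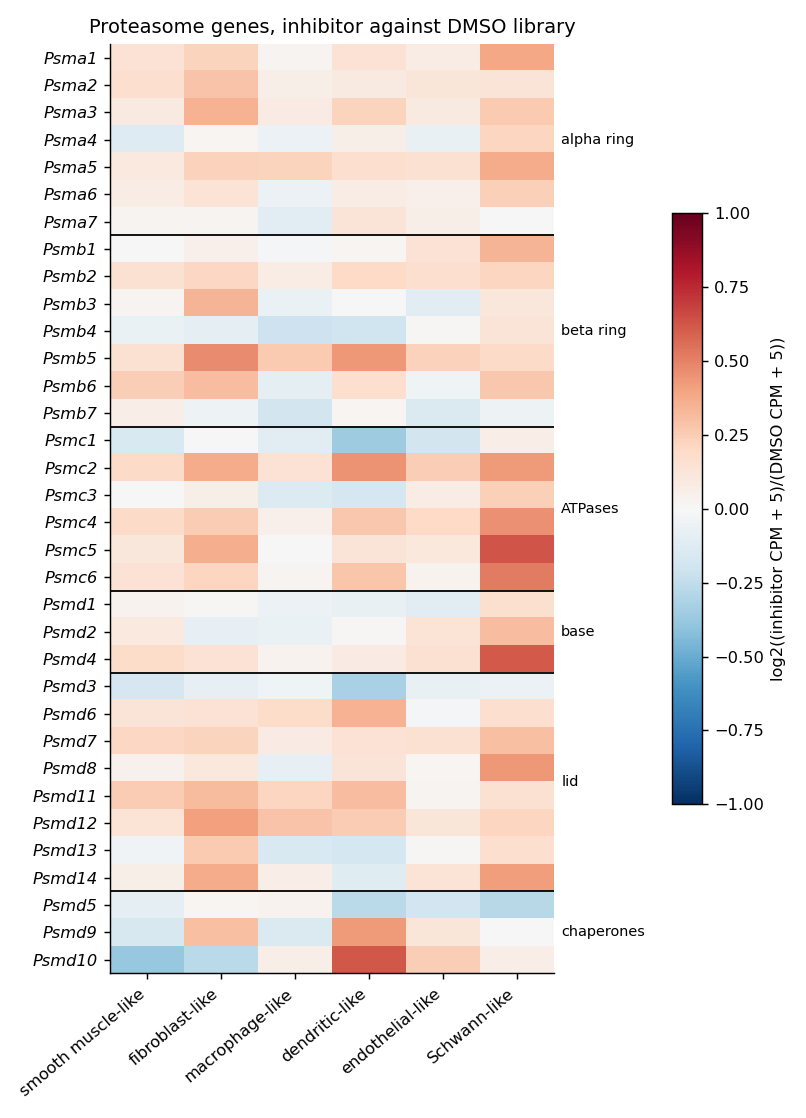
Log2 ratio of inhibitor to DMSO, after adding 5 CPM, for the 34 measured members (rows, by role) in the 6 compared classes (columns); red is higher and blue lower in the inhibitor library. Fibroblast-like and Schwann-like columns are mostly red (29 and 30 of 34 ratios above 1), the macrophage-like column is near white, and Psmd10 changes colour between classes.

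Among the catalytic subunits, Psmb5, the chymotrypsin-like site, had the highest ratio in fibroblast-like, dendritic-like, macrophage-like and endothelial-like cells, and Psmb6 in smooth muscle-like and Schwann-like cells. Psmb5 stood at 110 CPM in DMSO and 156 CPM in inhibitor fibroblast-like cells, a ratio of 1.41 (1.34 to 1.47). It stood at 123 and 167 CPM in dendritic-like cells (1.36, 1.16 to 1.59), 110 and 132 CPM in macrophage-like cells (1.21, 1.10 to 1.33) and 136 and 152 CPM in smooth muscle-like cells (1.12, 1.06 to 1.18). Psmb5 was higher in the inhibitor library in all 6 classes, with an interval above 1 in 5 of them, and within fibroblast-like clusters 1, 2 and 3 its ratio was 1.55, 1.42 and 1.34.

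The other catalytic subunits did not share this. Psmb6, the caspase-like site, stood at 170 and 212 CPM in fibroblast-like cells (1.246, 1.2 to 1.29) and at 242 and 287 CPM in smooth muscle-like cells (1.19, 1.14 to 1.24), but at 250 and 235 CPM in macrophage-like cells (0.940, 0.878 to 1.00). In Schwann-like cells Psmb6 stood at 167 and 202 CPM (1.21, 1.02 to 1.43). Psmb7, the trypsin-like site, stood at 71.2 and 68.7 CPM in fibroblast-like cells (0.964, 0.903 to 1.03) and at 99.7 and 87.4 CPM in macrophage-like cells (0.877, 0.785 to 0.977). Psmb4, a beta subunit without a proteolytic site, was below 1 in 4 classes with intervals that left out 1, as in macrophage-like cells with 222 and 192 CPM (0.865, 0.803 to 0.931). The beta ring thus held members with ratios on both sides of 1.

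In the regulator, the ATPases that unfold substrates differed most in Schwann-like cells. Psmc5 stood at 78.2 CPM in the DMSO and 124 CPM in the inhibitor library, a called ratio of 1.58 (1.26 to 1.98) from 198 and 130 UMIs. Psmc6 and Psmc4 had ratios of 1.46 and 1.4 there, and the 6 ATPases together stood at 530 and 703 CPM. Psmd4, the ubiquitin receptor of the regulator base, stood at 105 and 163 CPM in Schwann-like cells, a called ratio of 1.55 (1.27 to 1.89) from 267 and 172 UMIs. Within Schwann-like cluster 11 alone, Psmc5 had 1.55 and Psmd4 had 1.51. Schwann-like cluster 21 was 14.8% of the class in the DMSO and 31.7% in the inhibitor library, and its part in the class values was not tested. The core of Schwann-like cells had a ratio of 1.15 (1.10 to 1.21) and the regulator 1.26 (1.196 to 1.33), intervals that overlapped slightly.

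The lid, which holds the deubiquitinase, supplied the highest regulator ratios of fibroblast-like cells. Psmd12 stood at 87.3 and 117 CPM (1.34, 1.28 to 1.42) and Psmd14, the deubiquitinase itself, at 56.0 and 73.7 CPM (1.32, 1.23 to 1.41). Psmc2, an ATPase, stood at 82.5 and 108 CPM there (1.31, 1.24 to 1.38). Psmd12 was higher in the inhibitor library in macrophage-like cells as well, at 75.9 and 93.5 CPM (1.23, 1.10 to 1.38). Psmd11, a further lid subunit, led in smooth muscle-like cells at 104 and 126 CPM (1.2, 1.13 to 1.28). The lid subunit Psmd13 stood lower in macrophage-like inhibitor cells, at 101 and 90.2 CPM (0.895, 0.802 to 0.996). Psmd14 was not uniform, at 83.2 and 76.2 CPM in dendritic-like cells (0.916, 0.734 to 1.14) and 59.8 and 62.4 CPM in smooth muscle-like cells (1.04, 0.960 to 1.13).

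The assembly chaperones were the least abundant measured members and did not move as 1 group. Psmd10, known as gankyrin, stood at 29.5 and 48.0 CPM in dendritic-like cells, the third called pair, with a ratio of 1.63 (1.19 to 2.22) from 103 and 75 UMIs. In smooth muscle-like cells it stood at 28.3 and 20.6 CPM (0.728, 0.641 to 0.828) and in fibroblast-like cells at 28.0 and 22.4 CPM (0.799, 0.716 to 0.892). Psmd9 stood at 32.9 and 41.8 CPM in fibroblast-like cells (1.27, 1.16 to 1.38) and at 28.9 and 25.4 CPM in smooth muscle-like cells (0.879, 0.777 to 0.995). Psmd5 was the lowest measured member, at 25.7 and 24.7 CPM over all cells.

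The inducible subunits that can replace the catalytic members separated the cell types far more than the members did. Dendritic-like cells held 825 CPM of Psmb8 beside 123 CPM of Psmb5 in the DMSO library, 6.72 UMIs of the inducible gene per UMI of the constitutive one (6.07 to 7.46), and 4.59 (4.01 to 5.26) in the inhibitor library. Macrophage-like cells stood at 2.83 (2.67 to 3.004) and 2.26 (2.06 to 2.48). Fibroblast-like cells stood at 0.889 (0.850 to 0.930) and 0.475 (0.447 to 0.504), and smooth muscle-like cells at 0.160 (0.140 to 0.182) and 0.0457 (0.0402 to 0.0517). In these 4 classes the inhibitor library had the lower value, with intervals apart, and endothelial-like (1.96 and 1.93) and Schwann-like cells (1.95 and 1.69) had overlapping intervals. Psmb8 alone differed little in macrophage-like cells, at 310 and 299 CPM (0.965, 0.909 to 1.02), and in dendritic-like cells, at 825 and 767 CPM (0.929, 0.868 to 0.994). Psmb5 was higher in the inhibitor library in these 2 classes, with ratios of 1.21 and 1.36. In fibroblast-like cells the 10 macrophage markers summed to 298 and 101 CPM, and within clusters 1, 2 and 3 Psmb8 stood at 87.6 and 83.3, 104 and 89.4, and 79.9 and 63.1 CPM; the part of these markers was not tested. Psmb9 over Psmb6 was 1.76 and 1.28 in dendritic-like and 0.0279 and 0.00843 in smooth muscle-like cells. Endothelial-like cells went the other way for these pairs, with Psmb9 over Psmb6 at 0.535 (0.484 to 0.592) and 0.734 (0.642 to 0.839) and Psmb10 over Psmb7 at 1.16 (1.04 to 1.29) and 1.52 (1.30 to 1.77). Higher values with overlapping intervals were also seen in macrophage-like cells for Psmb9 over Psmb6 (0.425 and 0.453) and Psmb10 over Psmb7 (1.47 and 1.55). The same held in Schwann-like cells for Psmb10 over Psmb7 (1.36 and 1.62). Psmb10 over Psmb7 lay between 1.08 and 1.62 in the 5 classes other than smooth muscle-like cells, where it was 0.329 and 0.138.

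In smooth muscle-like cells Psmb8 went from 21.8 to 6.95 CPM (0.319, 0.268 to 0.379) and Psmb10 from 32.4 to 14.2 CPM (0.440, 0.386 to 0.502), so that 2 of 4 measured genes of the immunoproteasome and PA28 list were called lower, beside 8.27% of all measured genes. Markers of other cells moved with them: the 10 fibroblast markers summed to 10615 and 4511 CPM in smooth muscle-like cells and the 10 macrophage markers to 182 and 70.7 CPM in the DMSO and the inhibitor library, with 0 of either list undetected. Within cluster 7 Psmb8 stood at 31.4 and 18.0 CPM, and within cluster 0 at 7.37 and 4.49 CPM, below the level needed to count as measured. The part of these markers and of the cluster makeup in the Psmb8 and Psmb10 values was not tested.

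**Figure D4:**
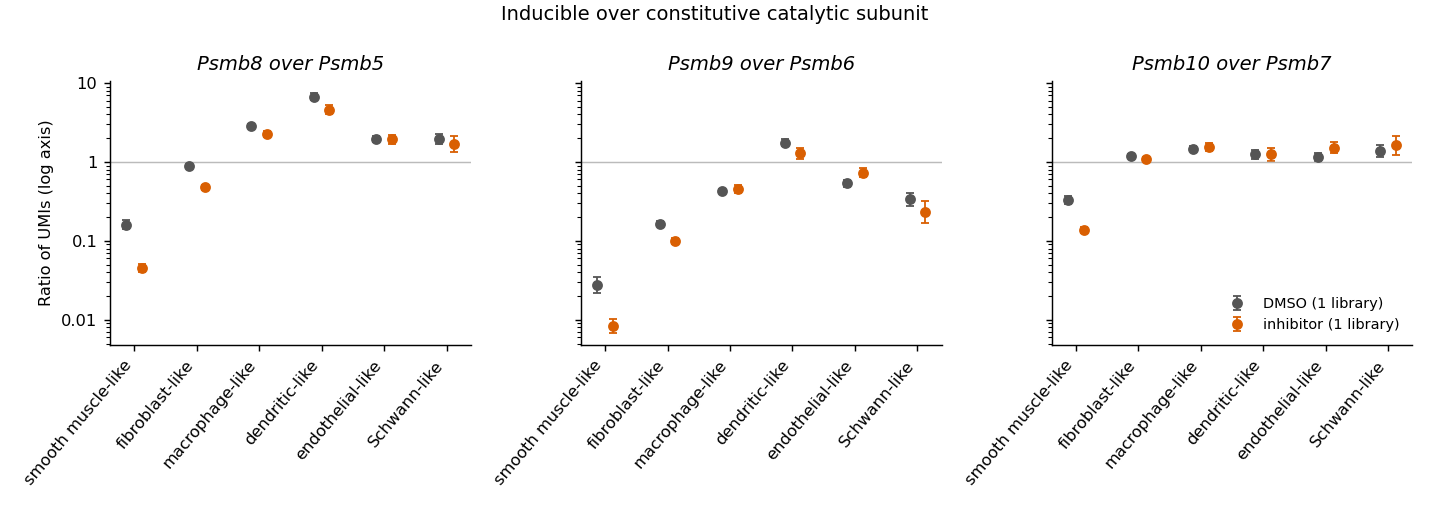
Ratio of UMIs of the inducible to the constitutive catalytic subunit (log axis) in the 6 compared classes, for Psmb8 over Psmb5, Psmb9 over Psmb6 and Psmb10 over Psmb7, in the DMSO (grey) and the inhibitor library (orange), 1 library each; bars are exact 95% counting intervals. Psmb8 over Psmb5 spans 0.0457 in smooth muscle-like cells to 6.72 in dendritic-like cells.

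Other genes of the pathway were called in some lists and classes. Psmg4, a chaperone of core assembly, was the 1 called gene of 4 measured in endothelial-like cells, at 40.7 and 68.1 CPM (1.67, 1.39 to 2.01; 4.44% of all genes higher), and the 1 of 5 in Schwann-like cells, at 45.4 and 69.4 CPM (1.53, 1.12 to 2.07). In dendritic-like cells 1 of 4 measured genes of the transcription factor list and 1 of 2 other activators were called lower (10.0% of all genes lower). These were Nfe2l2, a transcription factor of the antioxidant response, at 175 and 103 CPM (0.588, 0.491 to 0.701), and Psme4, the activator PA200, at 46.6 and 22.4 CPM (0.481, 0.324 to 0.696). Nfe2l1, which encodes Nrf1, was not called in any of the 6 classes and stood at 141 and 113 CPM in fibroblast-like cells (0.801, 0.763 to 0.841). Sqstm1, the receptor p62 that carries ubiquitinated cargo to autophagy, was called lower in macrophage-like cells at 160 and 96.8 CPM (0.606, 0.548 to 0.669; 4.0% of all genes lower) and in dendritic-like cells at 117 and 55.1 CPM (0.470, 0.368 to 0.594; 10.0% of all genes lower). Zfand2a in macrophage-like cells (33.2 and 21.2 CPM) and Zfand5 in dendritic-like cells (318 and 211 CPM) were also called lower. The list of shuttle factors and segregase thus had 2 of 10 measured genes lower in macrophage-like and 2 of 8 in dendritic-like cells. Usp14, Uchl5, Adrm1 and Sem1, further subunits or bound deubiquitinases of the regulator, had 0 calls in each class, beside 7.25% to 13.3% of all measured genes. Their median log2 ratio was 0.33 in fibroblast-like, 0.23 in Schwann-like and 0.20 in smooth muscle-like cells. It was 0.17 in dendritic-like, 0.08 in macrophage-like and 0.03 in endothelial-like cells.

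Complexes built on the same plan as the lid had medians nearer to 0 than the members in fibroblast-like and Schwann-like cells, but not in every class: eIF3 had 0.09 beside 0.08 in endothelial-like cells and COP9 -0.05 beside 0.01 in macrophage-like cells. The median log2 ratio of 13 measured eIF3 genes, which start translation, was 0.06 in fibroblast-like and 0.07 in Schwann-like cells, and that of 8 measured COP9 signalosome genes was 0.09 in both. The listed heat shock genes, whose products help to hold or refold damaged proteins, behaved otherwise. They are mostly cytosolic, but Hspd1 and Hspe1 act in mitochondria. In smooth muscle-like cells 12 of 12 were called higher in the inhibitor library, beside 3.47% of all measured genes, with a median log2 ratio of 2.02. Hspa1b stood at 194 and 1615 CPM (8.31, 7.97 to 8.66), Hspa1a at 421 and 3097 CPM (7.36, 7.15 to 7.56) and Hspb1 at 2126 and 12582 CPM (5.92, 5.84 to 5.99). In the same cells the median of the proteasome members was 0.08.

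In the other classes the heat shock list divided. It had 7 genes higher in fibroblast-like cells (5.07% of all genes) and 6 higher and 1 lower in macrophage-like cells (3.26% and 4.0%). In dendritic-like cells 4 were higher and 3 lower (3.14% and 10.0%). It had 7 higher in endothelial-like cells (4.44%) and 6 higher and 1 lower in Schwann-like cells (5.44% and 5.88%). Hspb1 was called higher in each of these 5 classes, while Hspa1a was lower in macrophage-like (369 and 183 CPM), dendritic-like (534 and 82.0 CPM) and Schwann-like cells (628 and 312 CPM). The 10 smooth muscle markers summed to 377 and 948 CPM in macrophage-like, 1121 and 1794 CPM in fibroblast-like and 1832 and 3079 CPM in endothelial-like cells. Their sums were 452 and 508 CPM in dendritic-like cells and, the other way, 2251 and 1465 CPM in Schwann-like cells. The part of smooth muscle transcripts in the Hspb1 values was not tested. Hsp90ab1, an abundant chaperone of kinases and receptors, stood at 2435 and 4236 CPM in dendritic-like cells, and Hsph1, a co-chaperone of Hsp70, at 66.9 and 175 CPM in fibroblast-like cells. Each group is 1 preparation, so preparation and group cannot be told apart.

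**Figure D5:**
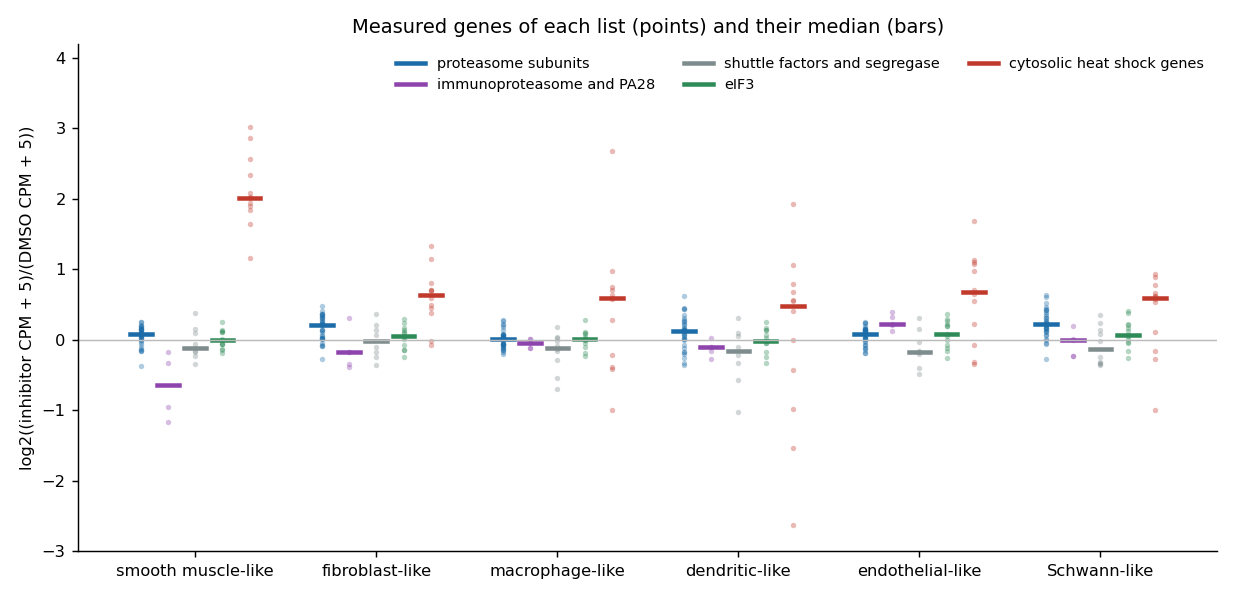
Log2 ratio of inhibitor to DMSO, after adding 5 CPM, for each measured gene (points) and the median (bars) of 5 gene lists in the 6 compared classes. The proteasome medians lie between 0.01 and 0.22 in every class, while the heat shock median is 2.02 in smooth muscle-like cells and 0.47 to 0.68 in the others.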

How the data were processed

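The files hold UMI counts per gene and cell barcode, deposited by the authors as raw counts with no normalization. Per the file headers, Cell Ranger 6.1.1 wrote them. The build was GRCm38, per the submitters' processing notes, which name Seurat too without its step. Every barcode holds at least 500 UMIs. All 55450 gene rows matched GENCODE M21. The libraries held 101139161 (DMSO) and 79648307 (inhibitor) UMIs.

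Cells with under 200 genes or over 20% mitochondrial UMIs were removed, as were Scrublet doublets (6% expected). Since the automatic cut-off called 0 DMSO cells, the inhibitor library's (0.214) served for both. Cells were clustered without integration on 2000 variable genes, without the members, the listed genes and the markers, using 30 principal components, 15 neighbours and Leiden resolution 1 (scanpy 1.11.5, leidenalg 0.10.2, Python 3.11.15). A cluster was named with 3 or more markers, a score of 1.5 or more, a median of at least 1000 UMIs, no other type with more markers among its 10 leading genes, and a lead of 0.5 over the next type; this last condition was added after the clusters were seen. Of 35 clusters, 9 stayed unnamed. Cells of a class were summed per library, and ratios have exact binomial intervals.

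Members and lists were chosen with earlier results of these data known. Named genes were the catalytic members, Psmd4 and Psmd14, the 4 highest and 4 lowest member ratios per class, up to 3 called genes per list and direction, the 3 most and least abundant members and the 4 that differ most between classes. Psma2, Psma4, Psmd6, Nfe2l1, Usp14, Uchl5, Adrm1 and Sem1 fall outside this rule and were chosen after their values were seen; some genes the rule names are given only within counts. On simulated counts, a 2-fold difference was called for 91% of genes in Schwann-like cells, the lowest class, and at most 2.28% of unchanged genes were called. The simulated counts held counting error only, with no variation between preparations or cells. The 2.28% is therefore not a rate of false calls between real libraries.

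Near-identical copies can split reads: Gm12989 held 116 UMIs beside 16057 of Psma5, Gm3375 held 152 beside 22418 of Psmb5, and Gm21972 held 8 beside 17798 of Psmd1. Genes on the opposite strand overlap exons of 8 members, among them Psmb7 and Psmc3; the labels do not state how the counting used strand. Protein sequences were not used here.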

Additional observations from a re-analysis of the deposited data

Results flagged for a closer look

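Some genes differed between the libraries in opposite directions in different classes, with intervals that left out 1 on both sides; the differences between classes were not tested. Psmd10 had a ratio of inhibitor to DMSO of 1.63 in dendritic-like cells, 0.728 in smooth muscle-like cells and 0.799 in fibroblast-like cells. Within smooth muscle-like clusters 0, 7 and 8 the Psmd10 ratio was 0.695, 0.927 and 0.881, and within fibroblast-like clusters 1 and 2 it was 0.948 and 0.974. Psmb9, the inducible counterpart of Psmb6, had 1.33 in endothelial-like and 0.749 in fibroblast-like cells. Eif3g, a subunit of eIF3, had 1.35 in Schwann-like and 0.786 in dendritic-like cells.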

How the results depend on the processing

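No paired analysis was possible because each group has 1 library. With 1 library per group no replicate could be left out, and the depth of the Schwann-like and dendritic-like classes (as few as 23 UMIs of a measured member) limits single genes there. Scaling by the median ratio of all measured genes gave summed ratios of 1.09 in smooth muscle-like, 1.14 in dendritic-like and 1.07 in endothelial-like cells, and medians of 0.21 for the members in dendritic-like cells, -0.27 for the other activators in endothelial-like cells and -0.14 for the transcription factor list in Schwann-like cells. Under UMIs per cell the ratio over the whole class was 0.819 in smooth muscle-like, 0.710 in fibroblast-like, 0.877 in macrophage-like, 1.01 in dendritic-like, 0.816 in endothelial-like and 0.998 in Schwann-like cells. The mean of the cells' shares gave 1.08, 1.15, 0.974 and 1.02 in smooth muscle-like, fibroblast-like, macrophage-like and endothelial-like cells. Without mitochondrial and ribosomal protein genes, the fibroblast-like sum gave 1.12, the other activators -0.17 in fibroblast-like and -0.29 in endothelial-like cells, and the transcription factor list -0.12 in Schwann-like cells.

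Counting Psmd5, Psmd9 and Psmd10 with the regulator gave core to regulator ratios, DMSO and inhibitor, of 1.196 and 1.18 in smooth muscle-like, 1.397 and 1.38 in fibroblast-like, 1.43 and 1.39 in macrophage-like, 1.70 and 1.69 in dendritic-like and 1.33 and 1.32 in endothelial-like cells, and 1.26 in Schwann-like DMSO cells. Without Psma7 and Psmd7 they were 1.44 in fibroblast-like DMSO cells, 1.37 and 1.35 in macrophage-like, 1.61 and 1.61 in dendritic-like and 1.35 in endothelial-like DMSO cells. At 5/4-fold, 1 member was lower in smooth muscle-like cells, 9 were higher and 1 lower in fibroblast-like, 5 higher in dendritic-like and 9 higher in Schwann-like cells; at 2-fold, 0 were higher in dendritic-like and 0 in Schwann-like cells. Without a filter on low values 1 member was lower in fibroblast-like cells, and at 50 CPM and 50 UMIs 0 were higher in dendritic-like cells.

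With doublets kept, the heat shock median was 1.84 in smooth muscle-like and 0.93 in Schwann-like cells, 1 member was higher in Schwann-like cells, and medians there were -0.27 for the immunoproteasome list and 0.16 for the other regulator subunits, with -0.27 for the other activators in endothelial-like cells. A mitochondrial limit of 10% gave -0.33 for the last. Within clusters, the members' median was 0.10 in macrophage-like cluster 5, -0.092 in endothelial-like cluster 12 and 0.0079 in endothelial-like cluster 16. The cause was not tested for these. Psmd4 in Schwann-like cells had log2 ratios, after adding 5 CPM, of 0.61 in the class, 0.58 under median-ratio scaling and 0.57 within cluster 11. Under the remaining alternatives, 40 sums and 67 core to regulator ratios stayed within their counting intervals, 63 medians of the members and 349 of the lists stayed within an interval from the spread of their genes, and 110 counts of members stayed within 1.5 times. For short lists that interval is the full range of their genes, so staying within it is a weak check.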

Other observations

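Classes with under 100 cells in 1 library enter no comparison. Neutrophil-like cells had the lowest summed proteasome level among neutrophil-like, T cell-like and the 6 compared classes, at 2660 CPM (2515 to 2812) in 240 DMSO cells and 2860 CPM (2547 to 3200) in 52 inhibitor cells, with median depths of 1863.5 and 1422.5 UMIs. T cell-like cells stood at 3939 and 4115 CPM, with core to regulator ratios of 1.58 and 1.58. Lymphatic endothelial-like cells stood at 4477 and 5426 CPM, and adipocyte-like cells, of which the inhibitor library held 39, at 4274 and 4795 CPM.

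The compared classes also hold clusters with levels far from the class. Fibroblast-like cluster 20, led by the cell division genes Ube2c, Cenpf, Cdk1 and Top2a, stood at 5884 CPM (5795 to 5974) in 101 DMSO cells and 6550 CPM (6438 to 6664) in 60 inhibitor cells, above the whole fibroblast-like class at 4124 and 4677 CPM. Its median depth was 21537 and 34389 UMIs per cell, against 15774 and 9358.5 in the class. Macrophage-like cluster 22, led by Mki67 and histone genes, stood at 4920 and 4774 CPM, and cluster 10, led by Gpnmb, Spp1 and Trem2, at 4851 and 5316 CPM. Cluster 4, led by Cd163, Folr2 and Mrc1, was lower than both, at 3279 and 3339 CPM, with a median depth of 2641 and 3342 UMIs.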
